A study of Homo sapiens with 12 samples.

Results

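The expression of 10 genes of the human pluripotency programme was followed in NCCIT cells in which chromatin regulators had been depleted. The genes were the core transcription factors POU5F1 (OCT4), NANOG and SOX2, the transcription factors SALL4, PRDM14, ZFP42 (REX1) and KLF4, and the RNA-binding proteins LIN28A, LIN28B and L1TD1. They were taken by name from the platform annotation of an Affymetrix Human Gene ST array, on which 14 of 33297 transcript clusters (the probe groups that stand for a transcript) list one of them, and all 10 were measured among 18419 genes. Single-gene clusters carried 8 of the 10. POU5F1 and NANOG had only clusters that also list near-identical copies (POU5F1P4, POU5F1P3 and POU5F1B, or NANOGP1), so their values cannot be assigned to the gene alone.

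NCCIT is a pluripotent embryonal carcinoma line from a nonseminomatous germ cell tumour, labelled by the submitters as embryonic carcinoma cells, and every group here was this line grown in McCoy's 5A medium with serum. The 6 conditions, with 2 arrays each, were siRNA against WDR5 (siWDR5), EED (siEED), RNF2 (siRNF2), both EED and RNF2 (siEED+RNF2) or SETD2 (siSETD2), and the control siNTC. WDR5 is shared by the MLL/COMPASS complexes that methylate histone H3 at active promoters, EED is a core subunit of Polycomb repressive complex PRC2, RNF2 is the ubiquitin ligase of PRC1, and SETD2 methylates histone H3 along transcribed genes. In the study's methods each siRNA was a pool of 4 oligonucleotides, given 24 h and 48 h after seeding, and cells were harvested at 96 h. These methods do not describe siSETD2. The depletions were transient and in 1 cell line, so each condition is a partial loss in a mixed population, in which fewer cells expressing a gene and less RNA per cell cannot be told apart. The siNTC arrays carry a label of re-analysis and are shared by every comparison with the control, so differences from siNTC are given side by side. Neither the labels nor the methods say that replicate arrays came from separate cultures, so a p-value here reflects only how far these arrays scatter.

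OCT4, SOX2 and NANOG bind one another's genes and hold a pluripotent cell in its undifferentiated state, and OCT4 and SOX2 often bind side by side at a joint SOX-octamer motif. SALL4 and PRDM14 work with them, ZFP42 is a widely used marker of undifferentiated cells, and KLF4 is a reprogramming factor linked to the naive state. LIN28A and LIN28B block the maturation of the let-7 microRNAs, and L1TD1, derived from a LINE-1 retrotransposon, binds RNA and is found in pluripotent and germ cell tumour cells.

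RefSeq promoter sequences (build GRCh38.p14) matched 6 of the 10 genes, with 7 start sites. The 250 bases before the start are shown for NANOG, whose expression was the steadiest, and for the genes whose expression moved furthest and that matched. Capitals mark matches on either strand to letters chosen after the sequences had been seen: the octamer ATGCAAAN, the SOX core CATTGT, the composite CATTGTNATGCAAAN that contains both, the GC box GGGCGG and the CCAAT box CCAAT. They lie at chr12:7789152-7789401 for NANOG (plus strand), chr1:62194599-62194848 for L1TD1 (plus strand), chr6:104940715-104940964 for the first of the 2 LIN28B starts (plus strand) and chr9:107489770-107490019 for KLF4 (minus strand).
NANOG: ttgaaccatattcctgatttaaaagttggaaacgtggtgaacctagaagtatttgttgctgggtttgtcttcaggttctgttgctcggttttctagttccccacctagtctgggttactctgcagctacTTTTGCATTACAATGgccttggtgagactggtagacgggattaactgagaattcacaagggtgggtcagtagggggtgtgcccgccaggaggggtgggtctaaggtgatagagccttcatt
L1TD1: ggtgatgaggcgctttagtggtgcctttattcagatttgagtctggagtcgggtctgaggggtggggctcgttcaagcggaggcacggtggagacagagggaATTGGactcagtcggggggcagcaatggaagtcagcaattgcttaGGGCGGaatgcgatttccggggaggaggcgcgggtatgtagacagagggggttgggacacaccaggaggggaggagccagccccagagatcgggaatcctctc
LIN28B: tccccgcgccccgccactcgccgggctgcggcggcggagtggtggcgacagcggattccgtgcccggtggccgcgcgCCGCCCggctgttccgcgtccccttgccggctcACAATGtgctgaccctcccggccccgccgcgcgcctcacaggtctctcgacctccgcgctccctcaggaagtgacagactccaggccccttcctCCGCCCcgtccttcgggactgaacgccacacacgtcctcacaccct
KLF4: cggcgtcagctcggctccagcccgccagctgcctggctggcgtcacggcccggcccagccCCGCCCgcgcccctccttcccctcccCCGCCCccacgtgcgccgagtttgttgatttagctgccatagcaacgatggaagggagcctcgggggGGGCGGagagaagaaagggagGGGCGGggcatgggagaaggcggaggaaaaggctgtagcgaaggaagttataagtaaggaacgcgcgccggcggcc

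The composite was found in the NANOG window, on the minus strand 121 bases before the start, and in 2 of 35116 promoters in all (0.0057%). Because its letters were chosen with the windows seen, that share does not measure how unusual the NANOG window is. The octamer alone also lay in the SOX2 window and was present in 3.93% of promoters, and the SOX core also lay in the LIN28B window and was present in 9.29%. KLF4 had 4 GC boxes, LIN28B 2 and L1TD1 1, a motif present in 42.6% of promoters, and the L1TD1 window also held a CCAAT box, present in 32%. TATAAA, present in 10.7%, lay in none of the 7 windows. The first LIN28B start stood out in CpG content, with 33 CpG in 250 bases and 73.6% GC, where 91.9% of promoters had fewer CpG. KLF4 had 25 CpG (69.2% GC) and L1TD1 12 (59.6% GC), beside a median of 11 over all promoters. Of the windows not shown, ZFP42 had 23 (74.4% GC), SOX2 20 (68.8% GC) and the second LIN28B start 6 (38.4% GC). Their GC boxes numbered 3, 1 and 0. The NANOG window had 4 CpG and 47.6% GC. A match describes these letters and was not tested for binding.

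Values are log2 expression values as the authors deposited them. A gene was said to rise or fall when limma's Benjamini-Hochberg adjusted p was under 0.05 over the 18423 rows tested and the change was at least 1.5-fold, which is 0.585 on the log2 scale. Arrays of a condition correlated at 0.996 to 0.997 over all clusters, and arrays of different conditions at up to 0.9952. Array medians lay between 6.29 and 6.36. The siRNA targets with a row fell in their own knockdown, WDR5 by 1.21 in siWDR5, EED by 1.29 in siEED and 1.61 in siEED+RNF2, and SETD2 by 1.75 in siSETD2. EED also fell by 0.66 in siRNF2. The RNF2 transcript was not analysed here.

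The core factors changed little. None of POU5F1, NANOG and SOX2 rose or fell in any of the 5 knockdowns. NANOG read 13.02 and 12.99 on the siNTC arrays, 13.03 and 13.03 in siWDR5, 13.04 and 13.07 in siEED, 13.10 and 13.10 in siRNF2, 13.04 and 13.11 in siEED+RNF2 and 13.10 and 13.14 in siSETD2. Its 6 condition means spanned 1.08-fold, and no neighbours in their order differed. Its differences from siNTC ran from 0.02 in siWDR5 (95% interval -0.10 to 0.15) to 0.12 in siSETD2 (-0.01 to 0.24). The siEED, siRNF2 and siEED+RNF2 differences changed sign when arrays were centred on their median over genes. Its other cluster, which lists the same genes, spanned 1.11-fold with the same order.

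POU5F1 read 12.83 and 12.83 in siNTC, 12.75 and 12.64 in siWDR5, 12.61 and 12.67 in siEED, 12.66 and 12.62 in siRNF2, 12.67 and 12.67 in siEED+RNF2 and 12.90 and 12.90 in siSETD2. The 8 arrays of WDR5 or Polycomb knockdown all lay below the siNTC arrays, and both siSETD2 arrays lay above them. The differences passed the adjusted p without the fold limit in siEED (-0.19 ± 0.06 SE, adjusted p = 0.03) and siRNF2 (-0.19, adjusted p = 0.024). In siWDR5 and siEED+RNF2 they were -0.14 (adjusted p = 0.098) and -0.16. siSETD2 exceeded siEED by 0.26 and siRNF2 by 0.26. The other POU5F1 clusters carry identical values on all 12 arrays, which makes them 1 measurement, and there the siEED and siRNF2 differences were -0.21 and -0.20.

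SOX2, the partner of OCT4 on DNA, read 12.78 and 12.76 in siNTC, 12.84 and 12.82 in siWDR5, 12.59 and 12.58 in siEED, 12.70 and 12.68 in siRNF2, 12.51 and 12.53 in siEED+RNF2 and 12.69 and 12.65 in siSETD2. Replicate arrays lay within 0.04 of each other, and the dual knockdown was lowest. The difference was -0.25 ± 0.06 (SE) in siEED+RNF2 (adjusted p = 0.003) and -0.19 in siEED (adjusted p = 0.022), both under the fold limit. siWDR5 was on the other side of the control by 0.06 (adjusted p = 0.46). Over the 6 condition means SOX2 spanned 1.24-fold and POU5F1 1.20-fold.

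**Figure D1:**
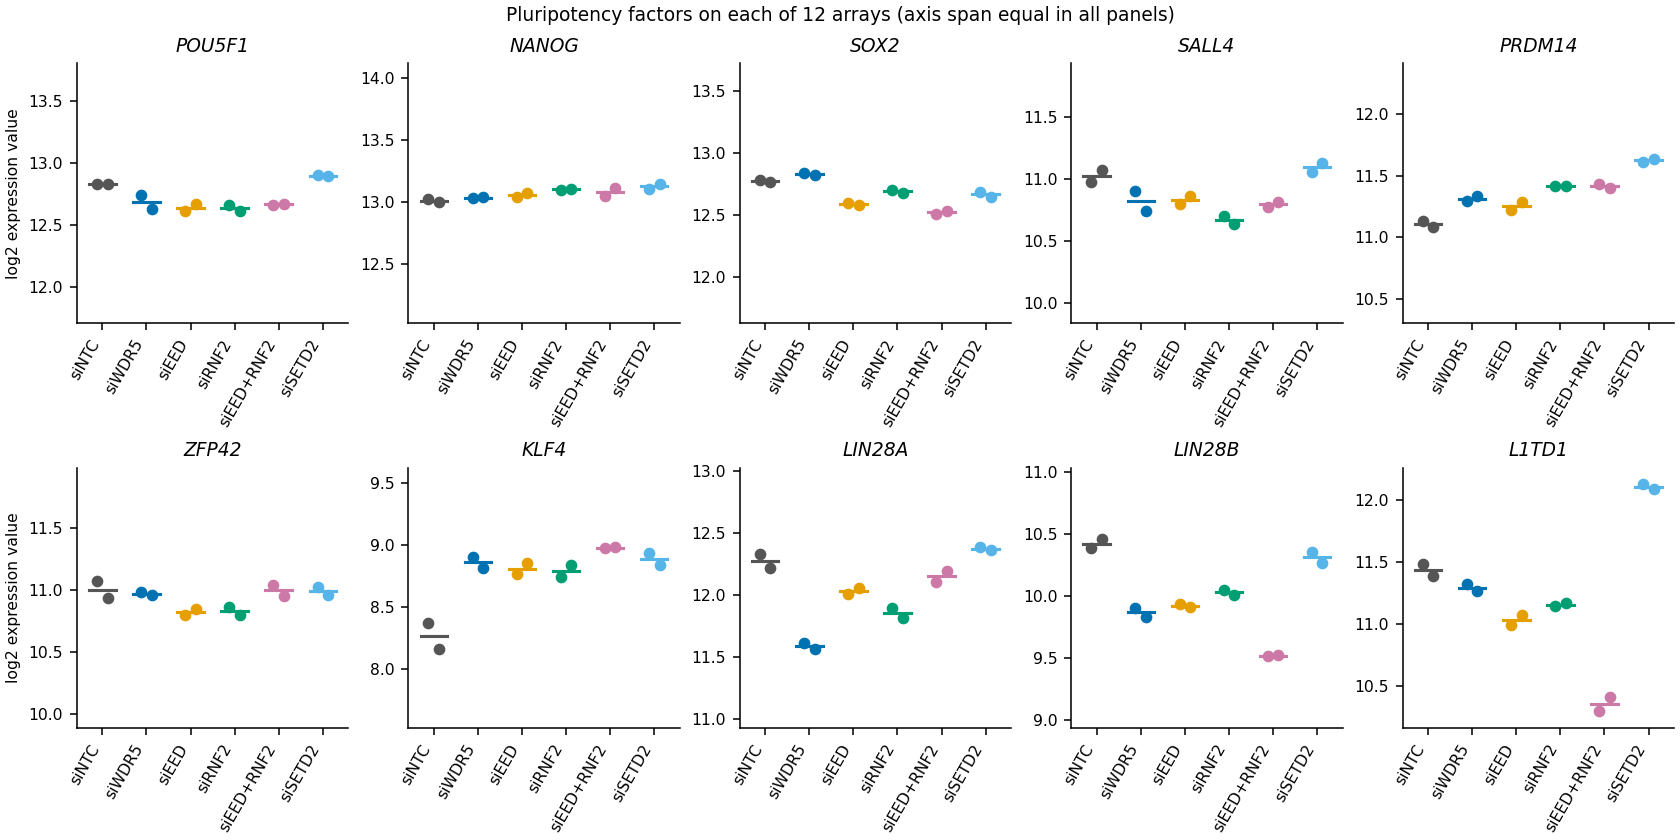
Log2 expression value (vertical axis, with the same span in each panel) of the 10 genes on every array, with the 6 conditions on the horizontal axis, points for the 2 arrays and a bar for their mean. NANOG is nearly level, L1TD1 runs from 10.30 in siEED+RNF2 to 12.13 in siSETD2, and KLF4 is lowest on both siNTC arrays.

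Among the partner transcription factors, KLF4 rose in 3 knockdowns, and SALL4, PRDM14 and ZFP42 passed the fold limit in none. KLF4 read 8.37 and 8.17 in siNTC, 8.90 and 8.82 in siWDR5, 8.77 and 8.85 in siEED, 8.74 and 8.84 in siRNF2, 8.98 and 8.98 in siEED+RNF2 and 8.94 and 8.84 in siSETD2. All 10 knockdown arrays lay above both control arrays. The rise was 0.59 ± 0.08 (SE) in siWDR5, 0.71 in siEED+RNF2 and 0.62 in siSETD2 (adjusted p = 0.00016, 2.1e-05 and 0.00013), and the differences of 0.54 in siEED and 0.52 in siRNF2 passed the adjusted p alone (0.00029 and 0.00025). No neighbouring knockdowns in the order of KLF4 means differed (adjusted p from 0.41 to 0.92). Against the mean of the other knockdowns in place of siNTC, KLF4 differed by -0.06 to 0.11 and passed in none, so its calls rest on the control arrays, which for KLF4 were 0.21 apart. Without siNTC replicate 2 it was 0.49 in siWDR5 and 0.51 in siSETD2, and without siWDR5 replicate 1 or siSETD2 replicate 1 it was 0.55 and 0.57, all under the fold limit. Without siNTC replicate 1 it passed in siEED (0.65) and siRNF2 (0.63), and without siEED replicate 1 it passed in siEED (0.59).

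PRDM14, a repressor of lineage genes, read 11.13 and 11.08 in siNTC, 11.30 and 11.33 in siWDR5, 11.22 and 11.29 in siEED, 11.41 and 11.42 in siRNF2, 11.43 and 11.40 in siEED+RNF2 and 11.61 and 11.63 in siSETD2. Every knockdown array was again above the control, and siSETD2 was highest. The siSETD2 difference of 0.52 ± 0.06 (SE) had an adjusted p of 4.7e-05 at 1.43-fold, and siSETD2 also exceeded the next condition, siEED+RNF2, by 0.21 (adjusted p = 0.014). In siRNF2 and siEED+RNF2 PRDM14 was 0.31 higher than in siNTC (adjusted p = 0.0011 and 0.00099).

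SALL4, a zinc finger partner of OCT4, read 10.98 and 11.07 in siNTC, 10.70 and 10.64 in siRNF2 and 11.06 and 11.13 in siSETD2, with the other 6 arrays between 10.75 and 10.91. It was lowest in siRNF2, 0.36 below siNTC on the log2 scale (adjusted p = 0.0017). The next condition, siEED+RNF2, was only 0.13 above siRNF2 (adjusted p = 0.26). ZFP42 lay between 10.80 and 11.07 on all arrays. Its widest difference from siNTC was -0.18 in siEED (adjusted p = 0.057), and its 6 condition means spanned 1.13-fold.

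The RNA-binding members varied most. L1TD1 spanned 3.38-fold over the condition means, LIN28B 1.87-fold and LIN28A 1.72-fold, against 1.64-fold for KLF4 and 1.43-fold or less for the other 6. Each had its own order of conditions.

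L1TD1 read 11.49 and 11.39 in siNTC, 11.32 and 11.27 in siWDR5, 11.00 and 11.08 in siEED, 11.15 and 11.17 in siRNF2, 10.30 and 10.42 in siEED+RNF2 and 12.13 and 12.09 in siSETD2. Both dual arrays lay below all others and both siSETD2 arrays above all others. L1TD1 fell to 47.2% of siNTC in the dual knockdown (-1.08 ± 0.07 SE, adjusted p = 2e-07) and rose to 159% in siSETD2 (0.67, adjusted p = 1.9e-05). siEED (-0.40, adjusted p = 0.00069) and siRNF2 (-0.28, adjusted p = 0.0054) were below the control at under 1.5-fold, and siWDR5 was -0.14 (adjusted p = 0.13). Tested directly, L1TD1 in the dual knockdown was lower than in siEED by 0.68 (adjusted p = 3.3e-05) and than in siRNF2 by 0.80 (adjusted p = 1.3e-05). It was the only one of the 10 called in either comparison, in which 2.91% and 3.27% of all rows were called.

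LIN28B read 10.39 and 10.46 in siNTC, 9.91 and 9.83 in siWDR5, 9.93 and 9.91 in siEED, 10.05 and 10.01 in siRNF2, 9.51 and 9.53 in siEED+RNF2 and 10.36 and 10.27 in siSETD2. The control and siSETD2 arrays were high, the single WDR5 and Polycomb knockdowns intermediate, and the dual knockdown low, with no overlap between these 3 levels. LIN28B fell to 53.4% of siNTC in siEED+RNF2 (-0.90 ± 0.06 SE, adjusted p = 4.1e-07). Against the mean of siWDR5 and siSETD2 in place of siNTC it was -0.57, under the fold limit. The differences in siWDR5 (-0.55), siEED (-0.50) and siRNF2 (-0.39) had adjusted p of 4.6e-05, 8.5e-05 and 0.00031 and stayed under 1.5-fold, and that in siSETD2 was -0.11 (adjusted p = 0.2). In siWDR5 it passed the fold limit without siNTC replicate 1 and without siWDR5 replicate 1, at -0.59 each.

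LIN28A read 12.33 and 12.22 in siNTC, 11.62 and 11.57 in siWDR5, 12.01 and 12.06 in siEED, 11.90 and 11.82 in siRNF2, 12.11 and 12.20 in siEED+RNF2 and 12.39 and 12.36 in siSETD2. siWDR5 was lowest with no overlap, and LIN28A there fell to 62.2% of siNTC (-0.68 ± 0.07 SE, adjusted p = 1.6e-05). With the other knockdowns as reference it was -0.51, under the fold limit. It was lower in siWDR5 than in the next condition, siRNF2, by 0.27 (adjusted p = 0.0089). siRNF2 was -0.42 from the control (adjusted p = 0.00031) and siEED -0.24 (adjusted p = 0.014), while the dual knockdown was -0.12 (adjusted p = 0.15).

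A second cluster annotated to LIN28A alone gave the same order with wider steps. Whether its probes match LIN28A alone was not tested. The cluster lay 2.18 to 2.67 below the brighter one on the log2 scale. It read 10.07 and 9.94 in siNTC, 8.95 and 9.04 in siWDR5, 9.63 and 9.51 in siEED, 9.45 and 9.23 in siRNF2, 9.83 and 9.85 in siEED+RNF2 and 10.21 and 10.15 in siSETD2. It fell by 1.02 in siWDR5 (adjusted p = 5.7e-06) and by 0.67 in siRNF2 (adjusted p = 5.6e-05), the latter 0.56 and under the fold limit without siRNF2 replicate 2.

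**Figure D2:**
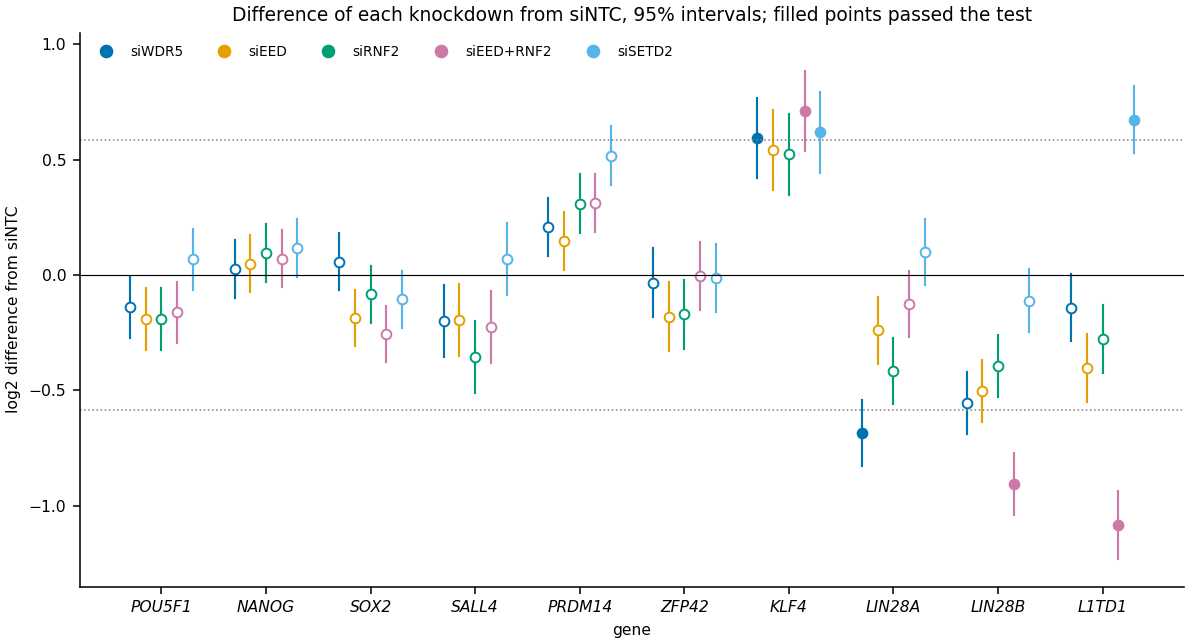
Log2 difference of each knockdown from siNTC (vertical axis) for the 10 genes (horizontal axis), with 95% intervals from limma. Filled points passed the adjusted p and the 1.5-fold limit (dotted lines at 0.585), and 7 are filled: 3 for KLF4, 2 for L1TD1 and 1 each for LIN28A and LIN28B.

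Counted by knockdown, 2 of the 10 genes were called in siWDR5 (KLF4 up, LIN28A down), where 6.02% of all rows were, 0 in siEED (6.37%), 0 in siRNF2 (10.2%), 3 in siEED+RNF2 (KLF4 up, L1TD1 and LIN28B down; 11.5%) and 2 in siSETD2 (KLF4 and L1TD1 up; 5.82%). For siEED and siRNF2, limma gave 9 and 8 of the 10 an unadjusted p under 0.05, a limit that 44.6% and 50.8% of all rows passed. At any fold, the adjusted p passed for 5 of the genes with siWDR5 (33.8% of all rows), 6 with siEED (35.4%), 7 with siRNF2 (43.1%), 6 with both depleted (42.1%) and 3 with siSETD2 (31.7%), so small changes were common on these arrays. The median difference of the 10 genes was -0.09, -0.19, -0.18, -0.14 and 0.08 in the same order, beside -0.03, -0.03, -0.04, -0.02 and -0.01 over all rows. The median over genes of the siRNF2 arrays differed from that of siNTC by 0.13, and their median over all clusters by -0.05. With arrays centred on their median over genes the siRNF2 differences were -0.48 for SALL4, -0.55 for LIN28A, -0.52 for LIN28B, -0.41 for L1TD1, -0.32 for POU5F1 and 0.39 for KLF4. Centring on the median over all clusters moves these differences the other way.

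Whether EED and RNF2 depletion added up was asked by setting the dual knockdown against the sum of the single ones. EED also fell in siRNF2, so both terms of that sum include a loss of EED. It fell further in the dual knockdown than in siEED, and the RNF2 transcript was not analysed. By the study's methods the dual transfection received both siRNA pools, each in the amount of a single knockdown, and more transfection reagent, so the second target cannot be told apart from the larger dose. LIN28B matched the sum closely. Its single differences sum to -0.90 and the dual difference was -0.90, a departure of -0.01 (95% interval -0.20 to 0.18, adjusted p = 0.95). L1TD1 went further than the sum of -0.68, by -0.40 ± 0.09 (SE, adjusted p = 0.0074), which is under the fold limit. LIN28A did the opposite, with single differences that sum to -0.66 and a dual difference of -0.12, a departure of 0.53 (adjusted p = 0.0011). KLF4 rose by less than the sum of 1.06 (departure -0.35, adjusted p = 0.033). The siNTC arrays, on which the KLF4 calls rest, enter both single differences in that sum, and their part in this departure was not tested. SALL4 and ZFP42 departed by 0.32 and 0.35 (adjusted p = 0.03 and 0.017), and SOX2, NANOG, PRDM14 and POU5F1 by 0.02, -0.07, -0.15 and 0.22 with adjusted p from 0.075 to 0.9.

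With both limits 0 of the 10 genes were called for this departure, where 11.3% of all rows were, and limma gave 6 of them an unadjusted p under 0.05, beside 41.0% of all rows. The second LIN28A cluster did pass, with a sum of -1.10, a dual difference of -0.17 and a departure of 0.93 ± 0.12 (SE, adjusted p = 0.00015). LIN28A itself passed without siNTC replicate 2, at 0.59.

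**Figure D3:**
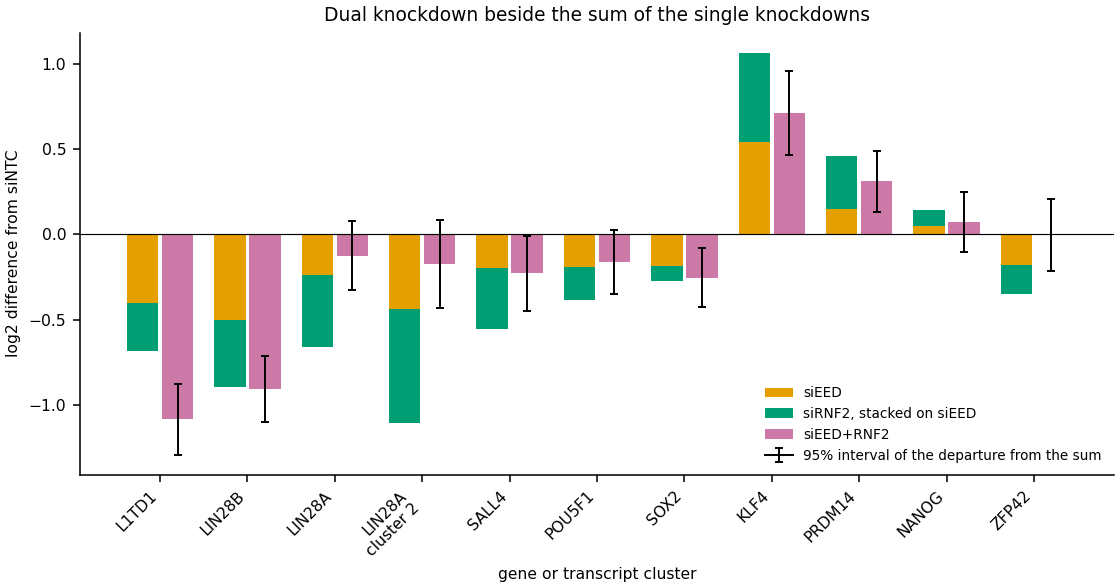
Log2 difference from siNTC (vertical axis) in siEED and siRNF2 stacked, beside siEED+RNF2, for the 10 genes and the second LIN28A cluster (horizontal axis), with the 95% interval of the departure drawn on the dual bar. The bars match for LIN28B, the dual bar is longer for L1TD1 (-1.08 beside -0.68) and shorter for LIN28A (-0.12 beside -0.66).

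L1TD1 was higher in siSETD2 than in each of the other knockdowns, and it was the only one of the 10 genes called against all 4. Tested directly, without the control arrays, it exceeded its level in siWDR5 by 0.81, siEED by 1.08, siRNF2 by 0.95 and siEED+RNF2 by 1.76 (adjusted p from 6.2e-09 to 5.5e-06). LIN28A was higher in siSETD2 than in siWDR5 by 0.78 (adjusted p = 6.2e-06), and LIN28B higher than in siEED+RNF2 by 0.79 (adjusted p = 1.3e-06). The genes called were thus 2 of 10 against siWDR5, where 5.85% of rows were called, 1 against siEED (6.29%), 1 against siRNF2 (8.67%) and 2 against siEED+RNF2 (10.4%), and all of these were higher in siSETD2. KLF4, NANOG and ZFP42 passed the adjusted p against none of the 4 (0.39 to 0.85, 0.26 to 0.8 and 0.083 to 0.94).

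The wider pluripotency network, 36 measured genes of 40 listed, was described beside the members. None rose and 5 fell in siWDR5, 1 rose and 5 fell in siEED, 1 rose and 9 fell in siRNF2 as well as in the dual knockdown, and siSETD2 had 2 of each. Over all 18423 rows, 515 rose and 594 fell in siWDR5, 688 and 485 in siEED, and 1174 and 702 in siRNF2. The dual knockdown had 1011 and 1109, and siSETD2 486 and 586. No list was tested as a set. The list medians were -0.10, -0.14, -0.21, -0.25 and 0.01 for siWDR5, siEED, siRNF2, the dual knockdown and siSETD2, beside the medians over all rows given above. POLR3G, a subunit of RNA polymerase III, fell most in the dual knockdown (-1.54), which was lower than siEED by 0.62 and siRNF2 by 0.77 in direct tests. It also fell in siEED (-0.93), after siRNF2 depletion (-0.77) and in siWDR5 (-0.60). USP44, a deubiquitinase of undifferentiated cells, fell in the dual knockdown (-1.14) and rose in siSETD2 (0.66), close to the L1TD1 values there, and was at -0.70 in siEED and -0.60 with siRNF2, both past the test. The chromatin remodeller CHD1 fell in siEED+RNF2 alone among the 5 knockdowns (-1.20, beside -0.04 in siEED and -0.20 in siRNF2), and its dual value was lower than both single ones by 1.15 and 1.00. TERF1, a telomere-binding protein, fell in siEED+RNF2 (-1.09) and in siRNF2 (-0.59). FGF2 fell in siEED+RNF2 (-1.02) and in siWDR5 (-0.73).

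ZSCAN10, a zinc finger factor of the OCT4 and SOX2 network, fell in every knockdown but siSETD2, from -0.63 in siWDR5 to -0.90 in siEED. VRTN fell in all 5, from -0.60 to -1.02, and these differences all share the siNTC arrays. LEFTY2, an inhibitor of Nodal signalling, rose by 1.07 in siEED and 0.86 in siEED+RNF2. EPCAM, an epithelial adhesion molecule of undifferentiated cells, fell in siEED (-0.71) and in the dual knockdown (-0.90). In siRNF2 MYCN fell (-0.68) and ZIC2 rose (0.59). DPPA4 rose by 0.59 in siSETD2, where PODXL fell by 0.79. With arrays centred on the median gene, 13 genes of the list fell in siEED and 12 in siRNF2, and with the other knockdowns as reference 1 gene fell in siEED, 1 in siRNF2 and 4 with both depleted.

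Of 13 measured naive state genes, to which KLF4 is linked, 3 rose in siWDR5 and in the dual knockdown. In siEED and also in siRNF2 2 rose, 1 rose in siSETD2, and none fell. Beside the counts over all rows given above, the lack of falls in so short a list is not a result. DPPA3 (STELLA), a maternal and germ cell factor, rose in every knockdown, from 1.41 in siWDR5 to 2.10 in siSETD2. Its differences all share the siNTC arrays, as those of KLF4 do. DNMT3L, a cofactor of the de novo DNA methyltransferases, rose most with both Polycomb factors depleted (2.46), by 2.19 in siEED and by 1.84 with siRNF2, and was at 0.42 in siWDR5 and 0.12 in siSETD2, neither past the test. ARGFX rose in siWDR5 and siEED+RNF2 (0.80 and 0.76) and NR5A2 in siWDR5 (0.78).

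Of 17 measured genes of the LIN28 and let-7 pathway, 2 rose and 2 fell in the dual knockdown, 2 rose with siRNF2 depletion, 1 rose and 1 fell in siEED, 1 rose in siWDR5 and 1 fell in siSETD2. These are to be read beside the counts over all rows given above. The list medians ran from -0.21 in siRNF2 to -0.05 in siWDR5. TUT7, a terminal uridylyltransferase that acts on let-7 precursors, fell by 1.06, and DICER1, which cuts them, by 0.70 in siEED+RNF2, the knockdown in which LIN28B fell. Among the let-7 targets listed, the cyclin CCND2 fell in siSETD2 (-0.97) and rose in the other 4 knockdowns, from 0.68 in siEED to 1.04 with siRNF2. The cell cycle factor E2F2 rose in siRNF2 and siEED+RNF2 (0.61 and 0.73), and CDC25A fell in siEED by 0.61.

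Among 23 measured relatives of the POU, SOX, KLF and SALL families, 3 rose in siWDR5, 2 in each Polycomb knockdown and 0 in siSETD2, and 1 fell in each of siRNF2, the dual knockdown and siSETD2. The same counts over all rows apply here. The list medians ran from -0.01 in siSETD2 to 0.21 in siWDR5. KLF6 rose by 0.62 to 0.76 in the 4 knockdowns other than siSETD2, where it was at 0.10. SOX21 rose in the same 4 by 0.64 to 0.92, and KLF3 rose in siWDR5 by 0.75. SOX4 fell by 0.59 in siRNF2 and in siEED+RNF2, and KLF7 fell by 1.16 in siSETD2.

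**Figure D4:**
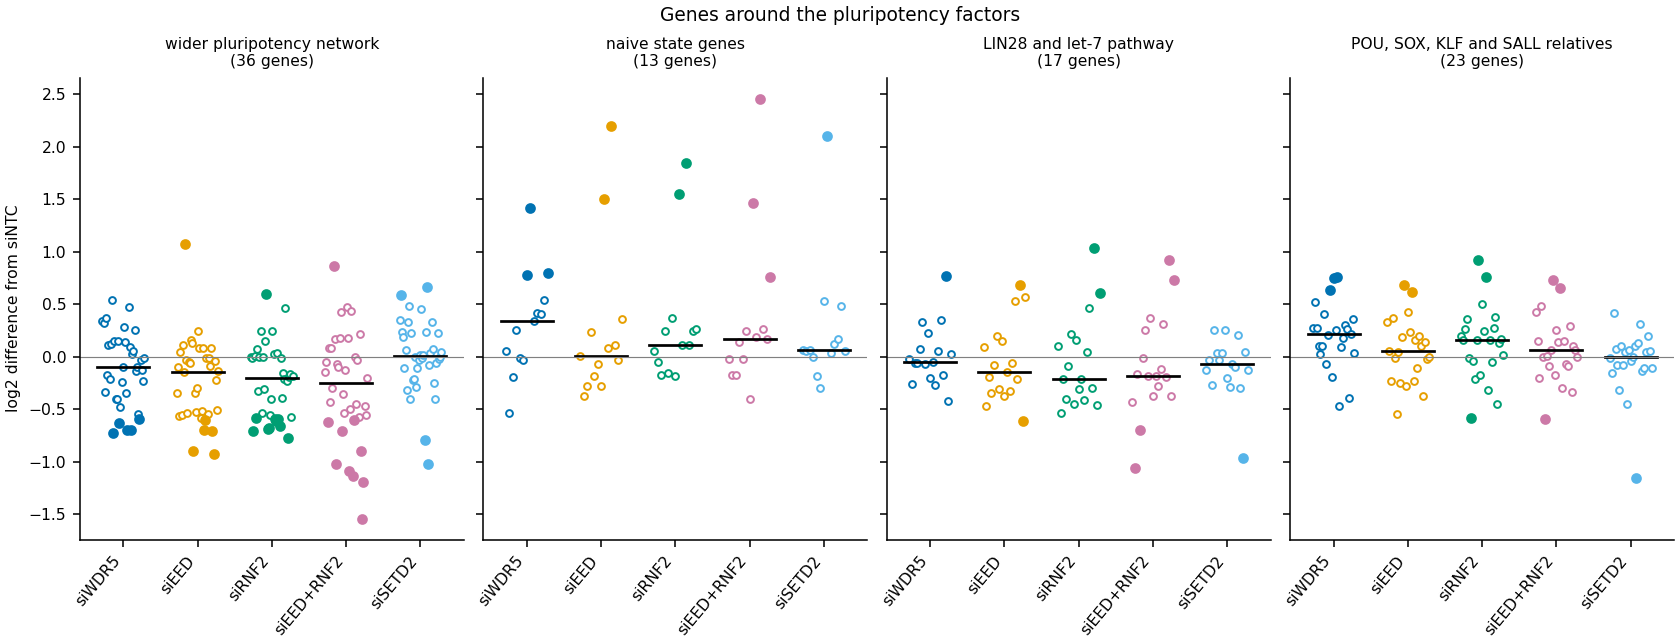
Log2 difference from siNTC (vertical axis) of each measured gene of 4 gene lists in the 5 knockdowns (horizontal axis), with filled points for genes that passed the test and a bar at the list median. Most filled points of the wider network lie below 0 in siEED+RNF2 (9 of 10), where 1109 of the 2120 called among all rows did. The highest points of the naive list are DPPA3 and DNMT3L.

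Markers were read to check the labelled cell type and other lineages. The embryonal carcinoma markers measured (6 of 7) lay between 7.04 and 12.39 on the siNTC arrays, lowest for TNFRSF8 (CD30). Their list mean was 10.90 to 10.96 in siNTC and 10.92 to 10.94 in siSETD2, and it was lower in siEED (10.53 to 10.58), with siRNF2 (10.59 to 10.63) and in the dual knockdown (10.67 to 10.69). In all, 3 of them fell in siRNF2 (DNMT3B, PODXL and GDF3), 1 fell in siEED+RNF2 (DNMT3B), 1 rose and 1 fell in siWDR5 (GAL and PODXL) and 1 rose and 1 fell in siSETD2 (DPPA4 and PODXL). All yolk sac, mesoderm, neuroectoderm and blood markers measured (5, 4, 3 and 2 genes) read at most 7.26 on the siNTC arrays, and none was called in any knockdown. Of the trophoblast markers (5 genes), HAND1 fell in siSETD2 (-1.94), siWDR5 (-1.59) and siEED (-0.81), and TFAP2A in siSETD2 (-1.61) and siWDR5 (-0.64). The mean log2 value of the whole list was 6.91 to 6.98 on the siNTC arrays and 6.09 to 6.12 in siSETD2. Of the seminoma markers (5 genes), TFAP2C rose in all knockdowns but siSETD2, from 0.60 in siWDR5 to 1.11 with both Polycomb factors depleted, and SOX17, PRDM1, KIT and PDPN were not called. The list mean was 6.90 to 6.97 on the siNTC arrays and 7.18 to 7.26 in the dual knockdown. Of the fibroblast markers (4 genes), THY1 fell in the 3 Polycomb knockdowns, most in siRNF2 (-1.67), and COL1A2, LUM and DCN were not called. Its list mean was 6.13 to 6.18 on the siNTC arrays and 5.55 to 5.63 in siRNF2. The part of these in the changes of LIN28A, LIN28B, L1TD1 and KLF4 was not tested.

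Genes with the pattern most like a member's were ranked by Pearson's r of the 6 condition means, as a description over 4896 genes that spanned at least 1.5-fold. LIN28B was followed most closely by the splicing factor SLU7 (r = 0.995), the zinc finger genes ZNF615, ZNF770 and ZNF484 and the replication checkpoint gene CLSPN, and 71 genes exceeded 0.95. POU5F1 was followed by SPRYD3 (0.997), ZBTB9, ZNF35, NIPAL1 and POP1, with 75 genes above 0.95. SOX2 had 2 such genes, RFTN2 (0.967) and KITLG, the ligand of KIT, ahead of SEMA3D, GLIPR1L1 and KLHL4. NANOG, which hardly varied, had 16, and those named are KDSR (0.994), SGSM1, OTULINL, IL13RA1 and SLC22A5. Symbols of small or uncharacterized RNAs, open reading frames and similar placeholder names were not named. For NANOG 1 such gene ranked ahead of OTULINL and 2 ahead of IL13RA1 and SLC22A5. The 6 points share their arrays and normalization.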

How the data were processed

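Total RNA (250 ng per array) from NCCIT cells was hybridised to 12 Affymetrix Human Gene ST arrays, 2 per condition, and conditions were taken from the labels. The authors deposited 1 table of log2 expression values with 33297 transcript clusters. GCRMA and Partek appear in the submitters' processing notes. For both, version and settings were not given in the sources used here. Background correction and normalization between arrays were thus already in the values and set each array's level. The number of arrays limits the precision. Columns not used: 0. 5mC-seq data were not analysed here.

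Gene names came from the platform annotation and were updated by gene number. Of all clusters, 19460 list 1 gene, 1754 several and 12083 none. The cluster with the highest mean stood for a gene (18417 genes, 769 with several clusters), and further clusters of the members were added (18423 rows). No dim gene was filtered out. A mean per condition was fitted with limma 3.58.1 in R 4.3.3 (6 residual degrees of freedom), followed by empirical Bayes moderation, and tested on simulated data. Figures were drawn with matplotlib 3.10.9. The members, the gene lists and the rule for named genes (all members, siRNA targets, up to 4 called genes with the largest change per list and knockdown, and genes whose count was 5 or fewer) were chosen with earlier results of these data known. Alternatives were other scalings, cluster choices, fits and references, a filter on dim genes, a replicate block and each array left out.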

Additional observations from a re-analysis of the deposited data

Results flagged for a closer look

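In the second LIN28A cluster the dual knockdown departed from the sum of the single ones. The interaction was 0.93 on the log2 scale (siEED+RNF2 minus both single knockdowns plus siNTC, limma, adjusted p = 0.00015), and relative to siNTC the dual knockdown was at -0.17, siEED at -0.44 and siRNF2 at -0.67. The dual knockdown against siEED alone gave 0.26 (adjusted p = 0.058). The brighter LIN28A cluster gave 0.53 in the same direction, under the 1.5-fold limit. No group had enough arrays for a test of single outlying arrays.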

How the results depend on the processing

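Across 23 alternatives the values of single members and their further clusters kept their call in 2443 instances, 48 passed the limits only under the alternative, 10 failed only there and 1 that was called changed sign. That one was KLF4 in siWDR5 with the mean of the other knockdowns as the reference (-0.0059, adjusted p = 0.96). This mean left out knockdowns that share a siRNA target with the one compared. Some values called under neither setting also changed sign, among them NANOG and ZFP42 with other scalings, and KLF4 in siEED (-0.04) and siRNF2 (-0.06) and LIN28A in siEED (0.09) with that reference. With that reference the number of called genes went from 2 to 0 in siWDR5, from 3 to 1 in siEED+RNF2 and from 2 to 1 in siSETD2, with L1TD1 the gene left in the last 2. There LIN28A in siWDR5 was -0.51 and LIN28B in siEED+RNF2 -0.57.

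Without the fold limit 5, 6, 7 and 6 genes passed in siWDR5, siEED, siRNF2 and siEED+RNF2, beside the shares of all rows given above. In the same way 2 passed for siEED+RNF2 against siEED, 3 against siRNF2 and 5 for the interaction. Of all 18423 rows, 2532, 3199 and 5618 passed in these 3 comparisons. The interaction count went from 0 to 1 (LIN28A) with arrays centred on their median over genes and with the mean of a gene's clusters, at 0.66 and 0.73. Leaving out 1 array gave 1 to 3 called genes in siWDR5, 0 to 1 in siEED, 0 to 1 in siRNF2, 1 to 2 in siSETD2 and 0 to 1 for the interaction. The others stayed at 3 in siEED+RNF2, 1 against siEED and 1 against siRNF2.

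Replicate numbers did not pair the arrays, since replicate differences correlated between conditions at -0.11 to 0.16 and exceeded 0.1 in 1 of 15 pairs of conditions. With the replicate block the counts of called genes were 2, 0, 0, 3 and 2 for the 5 knockdowns in the order used above, as without it. Quantile normalization, a filter on the 30% dimmest genes, robust moderation and every cluster as a row changed no count. The replicate block changed no other call. With 2 arrays per condition, a difference under the fold limit is known only to within its interval.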
